A study of Mus musculus with 4 samples.

Results

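The genes described here encode the secreted Wnt ligands, their Frizzled and other receptors, the secreted Wnt inhibitors, the Axin scaffold proteins and the TCF/LEF transcription factors. They were taken by gene symbol, with the Lrp5 and Lrp6 co-receptors, the receptors Ror1, Ror2 and Ryk and the inhibitor Wif1 included, and 49 of the 23358 gene rows matched. The choice used names and no measured values. Their mRNA was compared between 2 mouse cell lines, 2xSCS70 and 2xSCS2F10, which are labelled as progenitors of interstitial cells of Cajal, the cells that pace the contractions of gut muscle.

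Line 2xSCS70 was derived from stomach muscle layers of mice with the H-2Kb-tsA58 transgene, a thermolabile form of the SV40 large T antigen behind a histocompatibility promoter that interferon gamma induces. It was kept at 39.5 °C with no interferon gamma in the medium. Line 2xSCS2F10 came from the same tissue of C57BL/6J mice and was kept at 37 °C in the same basal medium, a neural stem cell proliferation medium, with 5% chick embryo extract added, which is not named for 2xSCS70. Each genotype was represented by 1 line, so line, genotype, temperature and medium cannot be told apart. Each line had 2 libraries of polyadenylated RNA, and the labels do not say whether they came from separate cultures, so p-values measure only the spread between libraries, which may be technical.

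Wnt proteins are lipid-modified and leave the cell bound to a carrier. At the receiving cell they bind a Frizzled receptor together with Lrp5 or Lrp6, which stops the Axin complex from marking beta-catenin for destruction and lets beta-catenin join TCF/LEF factors at target genes, or they act through Frizzled, Ror or Ryk on cell shape and movement without beta-catenin. Among the secreted inhibitors, Dkk1 and Dkk2 bind Lrp5 and Lrp6, whereas those of the Sfrp family and Wif1 bind the ligands.

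The libraries of 2xSCS70 held 24485632 and 22368504 fragments in genes, and those of 2xSCS2F10 held 20159986 and 22549451. Kit, the receptor tyrosine kinase by which mature interstitial cells of Cajal are recognised, was at 1 fragment in 2xSCS70 replicate 2 and at 0 in the other 3 libraries. Levels are given as CPM, the counts relative to the library size after TMM scaling, for comparison between lines, and as RPKM, which also divides by gene length, for comparison between genes. The floor used for a count of 0, 3 fragments, was 0.109 and 0.123 CPM in the 2xSCS70 libraries and 0.154 and 0.157 CPM in the 2xSCS2F10 libraries, and such floors and the intervals below describe counting error alone. Of 39 tested members, 0 differed by more than 2-fold on CPM + 0.5 between the 2xSCS70 replicates and 9 (23.1%) between the 2xSCS2F10 replicates, where over all 14496 tested genes the shares were 0.0828% and 6.20%. In bulk RNA, fewer cells of a type and less RNA per cell cannot be told apart.

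Most tested Wnt genes differed between the lines, in both directions. Of the 49 members, 39 passed the filter on low counts, and of those 12 were higher and 17 lower in 2xSCS70 at a Benjamini-Hochberg adjusted p under 0.05 (edgeR quasi-likelihood test over all genes). These 29 calls were 74.4% of the tested members, where 40.6% of all tested genes were called, 18.8% as higher and 21.8% as lower. A member that passed the filter through 1 line only had to differ, so this count is a description. At a mean of at least 10 CPM over the 4 libraries, which members abundant in 1 line alone such as Wnt11 and Ror2 still reach, 14 of 19 members (73.7%) and 3668 of 9194 genes (39.9%) were called. The median log2 fold change was -0.47 over the tested members and 0.02 over all tested genes. Of the 29 calls, 26 were at least 2-fold in size (89.7%, where 61.8% of the calls over all genes were), and in 35 of the 39 tested members the values of the lines did not overlap (89.7%, where it was 77.4% of all tested genes). On log2(RPKM + 1) values, which are not TMM scaled, the calls over all genes split differently, 63.8% of them higher, against 46.3% in the count test. There 11 members were higher and 13 lower (61.5% of those tested, beside 34.8% of all genes). With 2xSCS70 replicate 1 left out 8 members were called, and with its replicate 2 left out 9, which were 20.5% and 23.1% of those tested beside 5.86% and 6.13% of all genes. With 2xSCS2F10 replicate 1 or replicate 2 left out, 35 members (89.7%) were called each time, beside 66.0% and 61.8% of all genes.

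**Figure D1:**
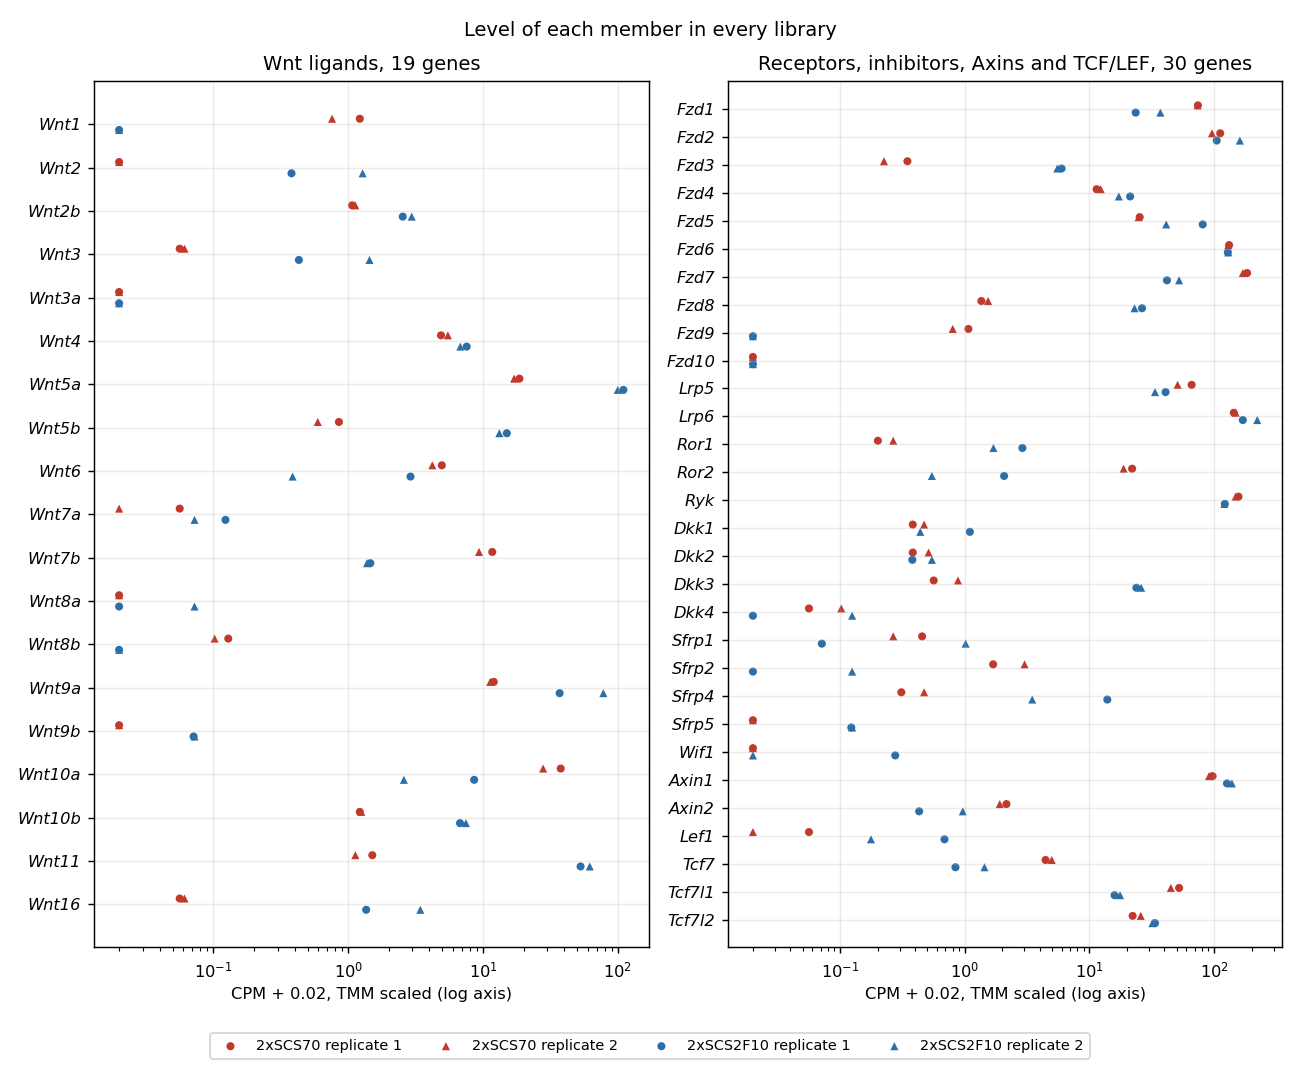
Level of each of the 49 members in the 4 libraries, in CPM plus 0.02 on a log axis, with 2xSCS70 in red and 2xSCS2F10 in blue and a symbol for each replicate. Wnt11 and Wnt5b lie at 0.575 to 1.49 CPM in 2xSCS70 and 13.2 to 61.9 CPM in 2xSCS2F10, and Fzd6 lies at 129 to 132 CPM in every library.

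Among markers of other cell types of the stomach wall, those of mesothelium and smooth muscle were mostly lower in 2xSCS70, and the other lists were mixed. The counts called below stand beside the 40.6% of all tested genes that were called. Of 9 tested mesothelial markers 1 was higher and 8 lower in 2xSCS70, and their summed level was 642 and 543 CPM in 2xSCS70, against 3980 and 4430 CPM in 2xSCS2F10. Most of the mesothelial sum in 2xSCS70 came from Krt18, the marker that was higher there. Of 9 tested smooth muscle markers 0 were higher and 8 lower, with a sum of 861 and 801 CPM, against 5340 and 9520 CPM. Of 8 tested markers of fibroblasts and PDGFRA-positive cells 3 were higher and 3 lower, with a sum of 8110 and 6600 CPM, against 22000 and 32700 CPM, most of it from the collagen genes Col1a1 and Col1a2. Enteric glia and neuron markers summed to 27.5 and 21.1 CPM, against 285 and 260 CPM, and without Uchl1, which was at 278 and 255 CPM in 2xSCS2F10, to 10.8 and 9.66 CPM in 2xSCS70, against 6.16 and 5.30 CPM in 2xSCS2F10. Of 6 tested 2 were higher and 1 lower, and Ret and Elavl4 were among those at 0 in 2xSCS70 and Elavl4 was at 0 in 2xSCS2F10. Endothelial and leukocyte markers summed to 5.88 and 8.34 CPM, against 4.73 and 6.46 CPM, with 3 higher and 1 lower of 5 tested, Emcn and Ptprc at 0 in 2xSCS70 and Cdh5 at 0 in 2xSCS2F10. Of 6 tested markers of interstitial cells of Cajal and their progenitors 2 were higher and 2 lower, with a sum of 720 and 682 CPM, against 463 and 403 CPM. The part of these other cell programmes in the Wnt differences was not tested.

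Fewer Wnt ligand transcripts were counted in 2xSCS70. The summed level of the ligands was 95.9 and 80.1 CPM in 2xSCS70, against 247 and 281 CPM in 2xSCS2F10. Of the 19 ligand genes 14 were tested, and 9 were lower and 3 higher in 2xSCS70 (85.7% called, where it was 40.6% of all genes). Wnt1, Wnt2, Wnt3 and Wnt16, with few or no fragments in 1 line, passed the filter through the other and had to differ. The median log2 fold change was -2.42, and it was the same with Wnt1 and Wnt2, each at 0 in a line, set at their bounds. At 1 RPKM or more in both libraries, 6 ligands were detected in 2xSCS70 and 6 in 2xSCS2F10, of which 3 were shared: Wnt5a, Wnt9a and Wnt4.

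Wnt11, Wnt5a and Wnt5b, ligands known for signalling without beta-catenin, were lower in 2xSCS70. Wnt11, which guides cell movement in the gastrula (chromosome 7, 98838845 to 98854747, mm10), was at 1.49 and 1.11 CPM in the 2xSCS70 libraries, against 52.9 and 61.9 CPM in the 2xSCS2F10 libraries. Both 2xSCS70 libraries lay far under both 2xSCS2F10 libraries, and the difference was 44.0-fold (log2 fold change -5.46, SE 0.22, edgeR adjusted p = 0.000447). Wnt5a, a ligand of Ror2 that steers the outgrowth of limbs and gut (chromosome 14, 28505473 to 28525515), was at 18.6 and 17.0 CPM in 2xSCS70, against 110 and 99.9 CPM in 2xSCS2F10. It was thus well expressed in both lines without overlap, and the 2xSCS70 level was 5.88-fold lower (log2 fold change -2.56, SE 0.14, edgeR adjusted p = 0.000648). Wnt5b, its close paralogue (chromosome 6, 119432531 to 119544347), was at 0.834 and 0.575 CPM in 2xSCS70, against 15.0 and 13.2 CPM in 2xSCS2F10. The lines did not overlap here either, and the difference was 19.8-fold (log2 fold change -4.31, SE 0.28, edgeR adjusted p = 0.000993). The Wnt5b row overlaps Fbxl14 on the other strand, and reads of an overlap cannot be told apart without strand. Fbxl14 was at 36.3 and 33.6 CPM in 2xSCS70, against 67.0 and 60.1 CPM in 2xSCS2F10. These 3 ligand calls held with each library left out in turn.

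Wnt10a and Wnt7b went the other way. Wnt10a, a ligand needed for teeth, hair and skin (chromosome 1, 74792019 to 74804175), was at 37.7 and 27.9 CPM in 2xSCS70, against 8.58 and 2.57 CPM in 2xSCS2F10. Every 2xSCS70 value was above every 2xSCS2F10 value, but the 2xSCS2F10 replicates differed from each other more than 3-fold. The fitted difference was 5.88-fold (log2 fold change 2.56, SE 0.58, edgeR adjusted p = 0.0236). Wnt7b, a ligand of lung and kidney development (chromosome 15, 85535437 to 85581821), was at 11.7 and 9.33 CPM in 2xSCS70, against 1.44 and 1.36 CPM in 2xSCS2F10. Replicates were close in both lines, and the gene was 7.50-fold higher in 2xSCS70 (log2 fold change 2.91, SE 0.24, edgeR adjusted p = 0.00176). A gene that overlaps Wnt7b on the other strand, AU022754, was at most at 0.493 CPM in any library.

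Wnt1, the founding member of the family and a midbrain patterning signal, had 33 and 18 fragments in 2xSCS70 and 0 in both libraries of 2xSCS2F10. That is at least 6.22-fold higher in 2xSCS70 when the 2xSCS2F10 libraries are set at the floor per library (edgeR adjusted p = 0.00868). Its level in 2xSCS70, 1.20 and 0.740 CPM, was low all the same.

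The remaining called ligands were lower in 2xSCS70. Wnt9a, a signal of joint formation (chromosome 11, 59306930 to 59333552), was at 12.0 and 11.3 CPM in 2xSCS70, against 37.0 and 78.1 CPM in 2xSCS2F10, and was 4.92-fold lower (log2 fold change -2.30, SE 0.38, edgeR adjusted p = 0.0100). Wnt10b, which in mice restrains fat cell formation, was at 1.20 and 1.23 CPM in 2xSCS70, against 6.73 and 7.45 CPM in 2xSCS2F10, and was 5.83-fold lower (SE 0.24 on the log2 scale, edgeR adjusted p = 0.00231). Wnt2b, which acts with Wnt2 in lung specification, was at 1.05 and 1.11 CPM in 2xSCS70, against 2.52 and 2.94 CPM in 2xSCS2F10, and was 2.52-fold lower (SE 0.28 on the log2 scale, edgeR adjusted p = 0.02). None of these 3 overlapped between lines, as was so for 77.4% of all tested genes, and Wnt9a was the one whose 2xSCS2F10 replicates stood apart. Wnt16, a ligand that protects bone cortex, had 1 and 1 fragments in 2xSCS70, against 26 and 65 in 2xSCS2F10, a ratio of 61.3 of 2xSCS2F10 over 2xSCS70 (exact 95% interval 16.5 to 514, edgeR adjusted p = 0.00535). Wnt3, needed for gastrulation, had 1 and 1 fragments in 2xSCS70, against 8 and 27 in 2xSCS2F10, a ratio of 23.6 of 2xSCS2F10 over 2xSCS70 (exact 95% interval 6.06 to 202, edgeR adjusted p = 0.0174). Wnt2 had 0 fragments in both libraries of 2xSCS70, against 7 and 24 in 2xSCS2F10, at least 6.98-fold lower by the floor per library (edgeR adjusted p = 0.0224). These 3 ligands were near or under the floor in 2xSCS70 and rare in 2xSCS2F10.

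The calls of Wnt1, Wnt2, Wnt2b, Wnt3, Wnt9a, Wnt10a, Wnt10b and Wnt16 ended without 2xSCS70 replicate 1 (edgeR adjusted p 0.0592 to 0.186) and without its replicate 2 (0.0568 to 0.172), and Wnt3 also missed the threshold on log2(RPKM + 1) values (limma adjusted p = 0.0667). Leaving out a 2xSCS2F10 library moved the size of 5 called ligand differences more than 1.5-fold. Without 2xSCS2F10 replicate 1 Wnt10a was 12.6-fold higher in 2xSCS70 and without replicate 2 it was 3.82-fold higher, and Wnt9a was 3.17-fold lower without replicate 2. The bound of Wnt2 was 10.9 without 2xSCS2F10 replicate 1 and 3.10 without replicate 2. The ratio of 2xSCS2F10 over 2xSCS70 was 36.8 (exact 95% interval 9.24 to 319) without 2xSCS2F10 replicate 1 and 10.7 (2.13 to 103) without replicate 2 for Wnt3, and 34.7 (8.68 to 301) without replicate 2 for Wnt16.

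A pair of tested ligands was not called. Wnt4, a signal of kidney and gonad development, was at 4.86 and 5.47 CPM in 2xSCS70, against 7.55 and 6.77 CPM in 2xSCS2F10 (log2 fold change -0.47, SE 0.20, edgeR adjusted p = 0.124). Its log2 fold change was -0.41 without 2xSCS2F10 replicate 1 and -0.55 without replicate 2. Wnt6, an epithelial signal of the embryo, was at 4.93 and 4.19 CPM in 2xSCS70, against 2.88 and 0.367 CPM in 2xSCS2F10 (log2 fold change 1.49, SE 0.85, edgeR adjusted p = 0.215). Its 2xSCS2F10 replicates were farther apart than the fitted difference between the lines. The log2 fold change of Wnt6 was 3.61 without 2xSCS2F10 replicate 1 and 0.66 without replicate 2. The 5 untested ligands were at or under 3 fragments in every library. Wnt3a was at 0 in all 4, Wnt8a had 1 fragment in 2xSCS2F10, Wnt9b 0 in 2xSCS70 and 1 in each library of 2xSCS2F10, Wnt8b 3 and 2 fragments in 2xSCS70 and 0 in 2xSCS2F10, and Wnt7a 1 and 0 in 2xSCS70, against 2 and 1 in 2xSCS2F10.

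Read per length, the makeup of the ligand pool was different in each line. Wnt10a held 53.8% and 49.1% of the summed ligand RPKM in the 2xSCS70 libraries, against 5.87% and 1.54% in the 2xSCS2F10 libraries. Wnt11 held 1.49% and 1.37% in 2xSCS70, against 25.5% and 26.1% in 2xSCS2F10, and Wnt5a 11.9% and 13.4%, against 33.7% and 26.9%. A single ligand thus made up about as much as the others combined in 2xSCS70, whereas 3 ligands of similar level led in 2xSCS2F10. In 2xSCS70, Wnt10a averaged 14.1 ± 3.96 RPKM, Wnt5a 3.40 ± 0.472, Wnt9a 2.94 ± 0.338, Wnt7b 2.00 ± 0.463, Wnt6 1.85 ± 0.345 and Wnt4 1.12 ± 0.0116 (SD, n = 2). In 2xSCS2F10, Wnt5a averaged 17.0 ± 3.26 RPKM, Wnt11 14.5 ± 0.204, Wnt9a 11.9 ± 4.66, Wnt5b 4.23 ± 0.915, Wnt10b 2.25 ± 0.121, Wnt10a 2.11 ± 1.79 and Wnt4 1.33 ± 0.269 (SD, n = 2). Wnt10a stood clear of the next ligand in 2xSCS70, while Wnt5a and Wnt9a in 2xSCS70, and Wnt5a, Wnt11 and Wnt9a in 2xSCS2F10, followed each other within about the sum of their SDs.

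**Figure D2:**
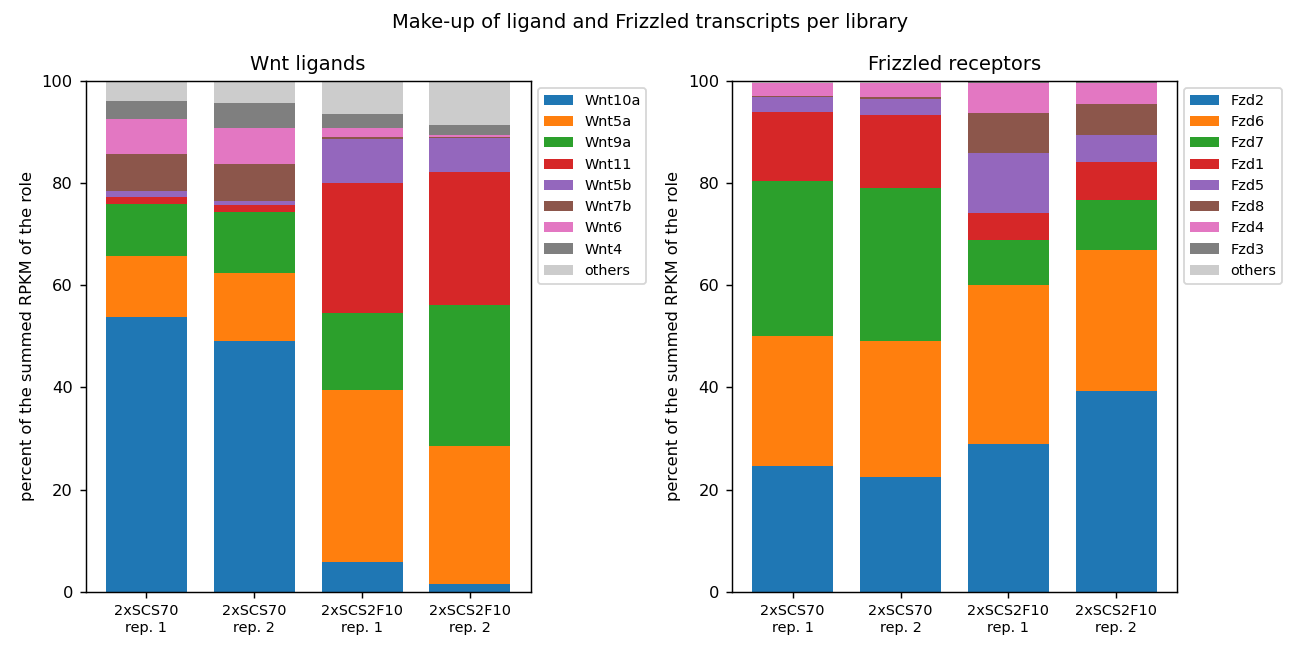
Share of the summed RPKM held by each Wnt ligand and each Frizzled receptor in the 4 libraries, 2xSCS70 left of 2xSCS2F10, as stacked bars that start at 0%. Wnt10a fills 49.1% to 53.8% of the ligand bars of 2xSCS70, where Wnt5a, Wnt11 and Wnt9a fill most of those of 2xSCS2F10, and Fzd7 takes 30.0% to 30.4% of the Frizzled bars of 2xSCS70.

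Several ligand genes are neighbours in the genome, and neighbours were not always called alike. Wnt10b and Wnt1 lie 11.7 kb apart on chromosome 15, on opposite strands and transcribed away from each other, and Wnt10b was lower and Wnt1 higher in 2xSCS70. Wnt6 and Wnt10a lie 6.7 kb apart on chromosome 1 on the same strand, and Wnt10a was called as higher whereas Wnt6 was not called. In the remaining neighbour pairs, Wnt3a with Wnt9a and Wnt9b with Wnt3 on chromosome 11, a member at or near 0 stands beside one that was lower in 2xSCS70.

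The promoters of Wnt11 and Wnt5b, the ligands with the largest differences at a mean above 5 CPM, and of that divergent pair are shown with motifs of TCF/LEF binding, since these factors carry the beta-catenin signal to DNA. The sequences are from RefSeq on GRCm38.p6 and run from 250 bases before to 50 bases after the annotated start, 5′ to 3′ on the strand of the gene, with a motif in capitals. The core motif was searched on both strands in 4 spellings that share their opening letters, namely CTTTGAT, the spelling CTTTGAA, the spelling CTTTGTT and the spelling CTTTGTA. The Wnt11 window at chr7:98834862-98835161 (plus strand, 1 of 2 RefSeq starts of the gene, ahead of the deposited gene interval) holds CTTTGAT on the other strand, printed as ATCAAAG, beginning 51 bases before the start. The Wnt5b window at chr6:119449337-119449636 (minus strand, 1 of 3 starts) holds it on the same strand 71 bases before the start. For Wnt11 and Wnt5b the start whose window holds the most motifs is shown, and their other starts hold none of the 4 spellings. The Wnt10b window at chr15:98778101-98778400 (minus strand) and the Wnt1 window at chr15:98789607-98789906 (plus strand) hold none.
Wnt11: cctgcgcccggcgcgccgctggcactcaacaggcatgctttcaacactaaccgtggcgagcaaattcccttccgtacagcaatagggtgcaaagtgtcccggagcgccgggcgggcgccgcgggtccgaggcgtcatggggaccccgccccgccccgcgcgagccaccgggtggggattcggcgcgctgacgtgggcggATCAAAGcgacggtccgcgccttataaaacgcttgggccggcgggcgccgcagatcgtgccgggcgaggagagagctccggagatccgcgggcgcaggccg
Wnt5b: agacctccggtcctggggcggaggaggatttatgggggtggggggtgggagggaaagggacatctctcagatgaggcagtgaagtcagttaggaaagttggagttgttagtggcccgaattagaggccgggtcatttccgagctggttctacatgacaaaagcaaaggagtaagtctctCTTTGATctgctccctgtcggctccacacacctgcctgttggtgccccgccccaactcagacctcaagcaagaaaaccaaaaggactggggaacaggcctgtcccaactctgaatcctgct
Wnt10b: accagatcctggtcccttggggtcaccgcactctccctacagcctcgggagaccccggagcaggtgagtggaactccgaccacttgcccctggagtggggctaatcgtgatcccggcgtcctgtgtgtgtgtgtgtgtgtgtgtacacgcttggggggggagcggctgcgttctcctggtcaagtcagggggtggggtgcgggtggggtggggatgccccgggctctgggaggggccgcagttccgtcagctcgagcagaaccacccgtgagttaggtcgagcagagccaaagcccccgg
Wnt1: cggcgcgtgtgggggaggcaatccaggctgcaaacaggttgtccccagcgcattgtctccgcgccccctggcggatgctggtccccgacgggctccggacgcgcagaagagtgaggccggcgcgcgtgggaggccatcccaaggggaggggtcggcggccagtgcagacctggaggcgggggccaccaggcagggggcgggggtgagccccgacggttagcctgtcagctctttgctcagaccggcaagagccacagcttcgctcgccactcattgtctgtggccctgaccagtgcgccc

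Over all 32851 RefSeq windows of this length, CTTTGAT was found in 3.73%, CTTTGAA in 5.14%, CTTTGTT in 5.85%, CTTTGTA in 3.63% and any of the 4 in 16.9%. Of the 49 members 34 had an entry, with 42 windows, of which 7 (16.7%) held any of the 4, those of Wnt11, Wnt5b, Wnt3, Fzd7, Dkk1, Lef1 and Tcf7l2. The share among members was therefore close to that of promoters in general. The windows shown were chosen after the expression values were seen, and a match describes letters, not binding.

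The Frizzled receptors were called in both directions. Their summed level was 542 and 510 CPM in 2xSCS70, against 434 and 467 CPM in 2xSCS2F10. Of 10 genes 9 were tested, 3 were higher and 4 lower in 2xSCS70 (77.8% called, where it was 40.6% of all genes). The other 2 were not called, and the median log2 fold change was -0.35. At 1 RPKM or more in both libraries, 6 were detected in 2xSCS70 and 7 in 2xSCS2F10, and those 6 were all among the 7, Fzd8 being the addition.

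Among the closely related Fzd1, Fzd2 and Fzd7, a pair was higher in 2xSCS70. Fzd7, a receptor that intestinal stem cells of mice need (chromosome 1, 59482147 to 59486955), was at 184 and 170 CPM in 2xSCS70, against 41.9 and 52.4 CPM in 2xSCS2F10. Each library of 2xSCS70 was more than 3-fold above each of 2xSCS2F10, and the fitted difference was 3.75-fold (log2 fold change 1.91, SE 0.16, edgeR adjusted p = 0.00171). Fzd1, a beta-catenin pathway receptor, was at 74.2 and 73.9 CPM in 2xSCS70, against 23.5 and 37.1 CPM in 2xSCS2F10, 2.44-fold higher (log2 fold change 1.29, SE 0.24, edgeR adjusted p = 0.0139). Fzd2, a receptor of Wnt5a among others, was at 112 and 96.3 CPM in 2xSCS70, against 105 and 161 CPM in 2xSCS2F10, with overlap (log2 fold change -0.35, SE 0.23, edgeR adjusted p = 0.276). Without 2xSCS2F10 replicate 1 its log2 fold change was -0.64.

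The related Fzd5 and Fzd8 were both lower in 2xSCS70. Fzd8, a receptor that can bind Wnt ligands together with Lrp6, was at 1.34 and 1.52 CPM in 2xSCS70, against 26.4 and 23.0 CPM in 2xSCS2F10. The lines were separated by more than 10-fold at every pairing of libraries, and the fitted difference was 17.2-fold (log2 fold change -4.11, SE 0.20, edgeR adjusted p = 0.000536). Fzd5, needed for yolk sac vessels in mice, was at 25.3 and 24.8 CPM in 2xSCS70, against 81.1 and 41.3 CPM in 2xSCS2F10, 2.44-fold lower (log2 fold change -1.29, SE 0.33, edgeR adjusted p = 0.0337).

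Fzd3 and Fzd6, receptors of planar cell polarity, parted. Fzd3, which guides axons (chromosome 14, 65192441 to 65262463), was at 0.327 and 0.205 CPM in 2xSCS70, against 5.96 and 5.51 CPM in 2xSCS2F10. It was near the floor in 2xSCS70 and 21.2-fold lower there (log2 fold change -4.41, SE 0.34, edgeR adjusted p = 0.00154). Fzd6, which orients hairs, was at 132 and 130 CPM in 2xSCS70, against 129 and 130 CPM in 2xSCS2F10 (log2 fold change 0.02, SE 0.11, edgeR adjusted p = 0.897). Fzd4, the receptor of Norrin in retinal vessels, was at 11.4 and 12.3 CPM in 2xSCS70, against 21.2 and 17.2 CPM in 2xSCS2F10, 1.62-fold lower without overlap (log2 fold change -0.69, SE 0.17, edgeR adjusted p = 0.0307). Its relative Fzd9, active in bone formation, had 29 and 19 fragments in 2xSCS70 and 0 in 2xSCS2F10, at least 5.88-fold higher by the floor per library (edgeR adjusted p = 0.00737), and Fzd10 was at 0 in all 4 libraries.

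The calls of Fzd1, Fzd4, Fzd5 and Fzd9 ended without 2xSCS70 replicate 1 (edgeR adjusted p 0.0773 to 0.242) and without its replicate 2 (0.0688 to 0.202), while those of Fzd3, Fzd7 and Fzd8 held. Fzd4 missed the threshold under upper quartile scaling (adjusted p = 0.0501), and Fzd4 and Fzd5 missed it on log2(RPKM + 1) values (limma adjusted p = 0.250 and 0.134).

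Per length, Fzd7 led in 2xSCS70 at 30.7 ± 3.91 RPKM, before Fzd6 at 26.4 ± 2.21, Fzd2 at 24.0 ± 4.32 and Fzd1 at 14.1 ± 1.05 RPKM (SD, n = 2). In 2xSCS2F10, Fzd2 at 25.5 ± 4.53 and Fzd6 at 22.1 ± 2.70 RPKM stood above Fzd7 at 6.88 ± 0.217, Fzd5 at 6.45 ± 3.67, Fzd8 at 5.26 ± 1.16 and Fzd1 at 4.80 ± 0.943 RPKM (SD, n = 2). Neighbours within each of these runs lay within the sum of their SDs, except Fzd2 and Fzd1 in 2xSCS70 and Fzd6 and Fzd7 in 2xSCS2F10. Fzd7 held 30.4% and 30.0% of the summed Frizzled RPKM in 2xSCS70, against 8.72% and 9.63% in 2xSCS2F10.

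The promoter of Fzd7 lies at chr1:59481897-59482196 (plus strand, GRCm38.p6), and it holds CTTTGTT on the other strand, printed as AACAAAG in capitals, beginning 130 bases before the start. It is printed as that of the most abundant Frizzled of 2xSCS70.
Fzd7: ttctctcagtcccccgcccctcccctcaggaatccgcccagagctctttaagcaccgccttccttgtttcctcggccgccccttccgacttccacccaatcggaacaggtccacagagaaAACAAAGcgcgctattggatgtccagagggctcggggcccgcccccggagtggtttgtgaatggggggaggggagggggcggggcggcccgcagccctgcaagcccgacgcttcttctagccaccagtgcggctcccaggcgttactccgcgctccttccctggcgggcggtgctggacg

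**Figure D3:**
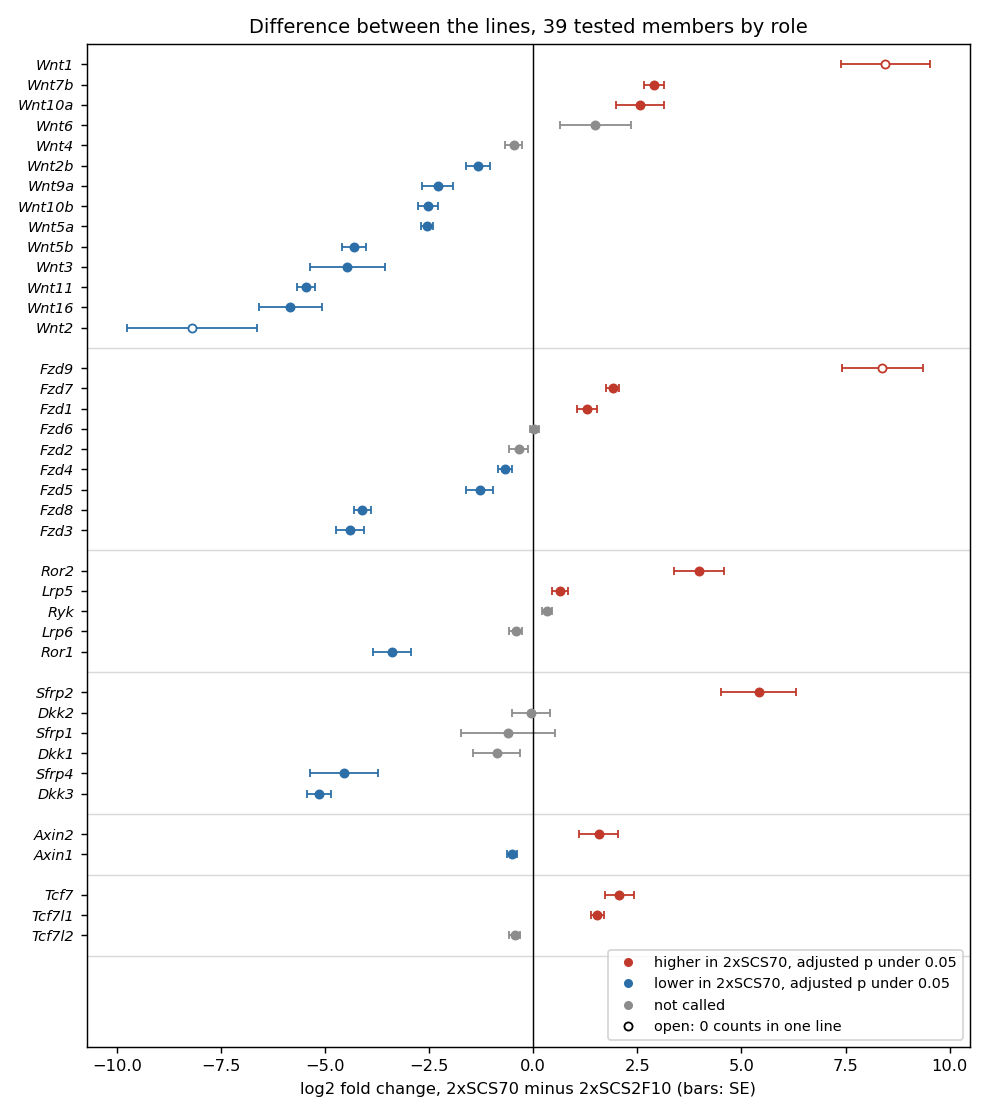
Log2 fold change of the 39 tested members, 2xSCS70 minus 2xSCS2F10, with bars of 1 SE, grouped by role and ordered by size, in red for higher, blue for lower and grey for not called. Open points mark Wnt1, Wnt2 and Fzd9, at 0 counts in a line, whose fitted values depend on the prior count. Tested members of each role lie on both sides of 0, from Wnt11 at -5.46 to Ror2 at 3.98 among members with at least 10 CPM on average.

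Among the other receptors, Ror1 and Ror2 were called in opposite directions. Ror2, a receptor tyrosine kinase-like protein that binds Wnt5a (chromosome 13, 53109317 to 53286109), was at 22.0 and 18.8 CPM in 2xSCS70, against 2.05 and 0.525 CPM in 2xSCS2F10. All values of 2xSCS70 were above those of 2xSCS2F10, whose replicates differed 3.92-fold, and the fitted difference was 15.8-fold (log2 fold change 3.98, SE 0.61, edgeR adjusted p = 0.00845). Ror1, its paralogue, was at 0.181 and 0.247 CPM in 2xSCS70, against 2.88 and 1.68 CPM in 2xSCS2F10, 10.6-fold lower without overlap (log2 fold change -3.40, SE 0.46, edgeR adjusted p = 0.00626). Per length both receptors were scarce in 2xSCS2F10, Ror1 at 0.466 ± 0.227 and Ror2 at 0.242 ± 0.222 RPKM (SD, n = 2). Wnt5a, described above, was lower in the line in which Ror2 was higher.

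The Lrp co-receptors and Ryk were abundant in both lines and differed by less than 2-fold. Lrp5 was at 66.1 and 51.0 CPM in 2xSCS70, against 40.8 and 33.6 CPM in 2xSCS2F10, 1.57-fold higher (log2 fold change 0.65, SE 0.19, edgeR adjusted p = 0.0448). Lrp6, the other co-receptor of the beta-catenin branch, was at 144 and 149 CPM in 2xSCS70, against 170 and 222 CPM in 2xSCS2F10 (log2 fold change -0.42, SE 0.16, edgeR adjusted p = 0.0967). Ryk, a kinase-dead Wnt receptor, was at 157 and 149 CPM in 2xSCS70, against 122 and 121 CPM in 2xSCS2F10 (log2 fold change 0.33, SE 0.11, edgeR adjusted p = 0.0631). In none of the 3 did the lines overlap, as was so for 77.4% of all tested genes, and Lrp6 and Ryk missed the threshold. Per length, Ryk averaged 39.1 ± 4.15 RPKM in 2xSCS70, the highest level of any receptor here in that line, and 26.4 ± 3.47 RPKM in 2xSCS2F10 (SD, n = 2).

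The calls of Ror1, Ror2 and Lrp5 ended without 2xSCS70 replicate 1 (edgeR adjusted p 0.0802 to 0.297) and without its replicate 2 (0.0737 to 0.126), and Lrp5 also missed the threshold with no filter on low counts (0.0544) and on log2(RPKM + 1) values (limma adjusted p = 0.0656). Ror2 was 38.4-fold higher without 2xSCS2F10 replicate 1 and 9.91-fold higher without replicate 2. Ryk passed as higher under upper quartile scaling (edgeR adjusted p = 0.0331) and under the filter at a mean of 5 CPM (0.0456). Over all alternatives the log2 fold change of Ryk lay between 0.30 and 0.57 and that of Lrp6 between -0.61 and -0.16.

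Secreted inhibitors were scarce in 2xSCS70. Their summed level was 3.70 and 5.59 CPM in 2xSCS70, against 39.6 and 31.7 CPM in 2xSCS2F10, and 0 of the 9 genes reached 1 RPKM in both libraries of 2xSCS70, against 2 in 2xSCS2F10. Most of the sum in 2xSCS2F10 came from Dkk3, whose values follow. Of the 6 tested, 1 was higher and 2 lower in 2xSCS70, with a median log2 fold change of -0.74. These 3 calls of 6 were a share near the 40.6% of all tested genes that were called. Dkk3, a divergent Dickkopf protein (chromosome 7, 112116019 to 112159057), was at 0.544 and 0.863 CPM in 2xSCS70, against 23.8 and 26.0 CPM in 2xSCS2F10. The replicates were close in 2xSCS2F10, there was no overlap, and the difference was 35.4-fold (log2 fold change -5.15, SE 0.28, edgeR adjusted p = 0.000696). Sfrp4, a Wnt-binding inhibitor expressed in bone and connective tissue, was at 0.290 and 0.452 CPM in 2xSCS70, against 13.9 and 3.46 CPM in 2xSCS2F10, 23.4-fold lower (log2 fold change -4.55, SE 0.81, edgeR adjusted p = 0.0124). Sfrp2, another Wnt-binding inhibitor, had 46 and 73 fragments in 2xSCS70, against 0 and 2 in 2xSCS2F10, a ratio of 44.2 of 2xSCS70 over 2xSCS2F10 (exact 95% interval 12.0 to 369, edgeR adjusted p = 0.0104).

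Both Sfrp genes were thus separated between the lines, in opposite directions. Their calls ended without 2xSCS70 replicate 1 (edgeR adjusted p 0.0716 for Sfrp2 and 0.118 for Sfrp4) and without its replicate 2 (0.0951 and 0.103), whereas that of Dkk3 held. Sfrp4 was 9.44-fold lower without 2xSCS2F10 replicate 1 and 37.7-fold lower without replicate 2, and the ratio of Sfrp2 was 21.8 (exact 95% interval 5.92 to 182) without 2xSCS2F10 replicate 1 and at least 15.1 without replicate 2.

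Dkk1, the inhibitor best known for binding Lrp6, was at 0.363 and 0.452 CPM in 2xSCS70, against 1.08 and 0.420 CPM in 2xSCS2F10 (log2 fold change -0.88, SE 0.57, edgeR adjusted p = 0.265). Its log2 fold change lay between -1.41 and -0.06 over all alternatives. Dkk2, which binds the same co-receptor, was at 0.363 and 0.493 CPM in 2xSCS70, against 0.360 and 0.525 CPM in 2xSCS2F10 (log2 fold change -0.05, SE 0.45, edgeR adjusted p = 0.936). Sfrp1 was at 0.435 and 0.247 CPM in 2xSCS70, against 0.0514 and 0.997 CPM in 2xSCS2F10 (log2 fold change -0.60, SE 1.13, edgeR adjusted p = 0.691). In all 3 the lines overlapped, and Sfrp1 took a direction from whichever 2xSCS2F10 library was kept, at a log2 fold change of -1.54 without replicate 1 and 2.68 without replicate 2. The 3 untested inhibitors had few fragments: Dkk4 1 and 2 in 2xSCS70, against 0 and 2 in 2xSCS2F10, Sfrp5 0 in 2xSCS70, against 2 and 2 in 2xSCS2F10, and Wif1 0 in 2xSCS70, against 5 and 0 in 2xSCS2F10.

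The scaffold genes moved apart. Axin1, the scaffold of the beta-catenin destruction complex, was at 97.3 and 91.1 CPM in 2xSCS70, against 127 and 139 CPM in 2xSCS2F10, 1.41-fold lower without overlap (log2 fold change -0.50, SE 0.12, edgeR adjusted p = 0.0269). Axin2, a scaffold that is itself a widely used beta-catenin target (chromosome 11, 108920349 to 108950781), was at 2.14 and 1.89 CPM in 2xSCS70, against 0.411 and 0.945 CPM in 2xSCS2F10, 2.97-fold higher (log2 fold change 1.57, SE 0.47, edgeR adjusted p = 0.0497). Axin2 was low in both lines, at under 1 RPKM, and its adjusted p lay at the threshold. It missed it under RLE scaling (adjusted p = 0.0515) and with no filter (0.0517), Axin1 missed it on log2(RPKM + 1) values (limma adjusted p = 0.298), and both calls ended without 2xSCS70 replicate 1 (0.195 for Axin1 and 0.246 for Axin2) and without its replicate 2 (0.251 and 0.209). Without 2xSCS2F10 replicate 2, Axin2 was 4.88-fold higher. The promoter of Axin2 at chr11:108920099-108920398 (plus strand, GRCm38.p6) is printed since the gene serves as a readout of the pathway, and none of the 4 spellings is in this window.
Axin2: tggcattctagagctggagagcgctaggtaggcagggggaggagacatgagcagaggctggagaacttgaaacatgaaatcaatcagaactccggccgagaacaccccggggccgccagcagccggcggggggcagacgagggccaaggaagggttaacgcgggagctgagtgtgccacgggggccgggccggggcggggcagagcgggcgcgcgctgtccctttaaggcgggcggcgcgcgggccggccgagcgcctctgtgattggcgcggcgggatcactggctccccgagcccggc

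The TCF/LEF factors that passed were higher in 2xSCS70. Tcf7l1, mainly a repressor of Wnt targets (chromosome 6, 72626380 to 72788956), was at 52.4 and 45.0 CPM in 2xSCS70, against 15.9 and 17.6 CPM in 2xSCS2F10. The lines were apart by more than 2-fold at every pairing of libraries, and the difference was 2.91-fold (log2 fold change 1.54, SE 0.15, edgeR adjusted p = 0.00255). Tcf7, which encodes TCF1 (chromosome 11, 52252604 to 52282571), was at 4.43 and 4.97 CPM in 2xSCS70, against 0.822 and 1.42 CPM in 2xSCS2F10, 4.19-fold higher without overlap (log2 fold change 2.07, SE 0.35, edgeR adjusted p = 0.0108). Tcf7l2, the main factor of the intestinal epithelium, was at 22.2 and 25.8 CPM in 2xSCS70, against 33.6 and 32.0 CPM in 2xSCS2F10 (log2 fold change -0.45, SE 0.14, edgeR adjusted p = 0.0560). It passed as lower with DESeq2 (adjusted p = 0.0462), and over all alternatives its log2 fold change lay between -0.56 and -0.18. Lef1 was untested, with 1 and 0 fragments in 2xSCS70, against 13 and 3 in 2xSCS2F10, a ratio of 21.6 of 2xSCS2F10 over 2xSCS70 (exact 95% interval 3.35 to 904). With 2xSCS70 replicate 1 left out, neither Tcf7l1 (adjusted p = 0.0557) nor Tcf7 (0.0978) was called, and with replicate 2 left out Tcf7 was not (0.112). A gene on the other strand of Tcf7l1, Gm15401, was at most at 2.38 CPM.

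Other genes of the pathway were read from 4 lists drawn up by role. Within the cell, the core machinery stayed mostly under the threshold: of 28 tested genes 2 were higher and 4 lower in 2xSCS70 (21.4% called, where it was 40.6% of all genes), with a median log2 fold change of 0.07. Pygo1, a nuclear partner of beta-catenin, was at 7.22 and 6.53 CPM in 2xSCS70, against 0.154 and 0.157 CPM in 2xSCS2F10, 43.4-fold higher (edgeR adjusted p = 0.000725). Tle4 and Tle1, Groucho-type co-repressors of TCF/LEF, were 4.85-fold and 3.32-fold lower (edgeR adjusted p = 0.00156 and 0.00210). Tle4 was at 7.80 and 6.49 CPM in 2xSCS70, against 37.6 and 31.8 CPM in 2xSCS2F10, and Tle1 at 11.8 and 9.99 CPM, against 34.7 and 37.4 CPM. Kinases of the pathway differed less, Csnk1a1, a casein kinase of the destruction complex, being 2.23-fold and Csnk1g3, a membrane-bound casein kinase, 1.61-fold lower and Gsk3a 1.47-fold higher (edgeR adjusted p = 0.00816, 0.0138 and 0.0184). Beta-catenin itself, Ctnnb1, was at 792 and 770 CPM in 2xSCS70, against 536 and 625 CPM in 2xSCS2F10, and was not called (log2 fold change 0.43, edgeR adjusted p = 0.0658). With 2xSCS2F10 replicate 1 or replicate 2 left out, the log2 fold change of Ctnnb1 was 0.31 and 0.54.

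Genes of Wnt secretion, R-spondins and receptor turnover differed in 15 of 18 tested cases (83.3%, where it was 40.6% of all genes). Of these, 8 were higher and 7 lower in 2xSCS70, and the median log2 fold change of the list was 0.68. Genes that passed the filter through 1 line only, such as Rnf43 and Notum, had to differ, so this count is a description. Porcn, the enzyme that lipid-modifies Wnt proteins, was at 7.29 and 6.90 CPM in 2xSCS70, against 1.23 and 0.945 CPM in 2xSCS2F10, 6.50-fold higher (edgeR adjusted p = 0.00265). The ubiquitin ligases Rnf43 and Znrf3, which remove Frizzled receptors from the cell surface, were both higher. Znrf3 was at 22.5 and 21.8 CPM in 2xSCS70, against 12.3 and 13.2 CPM in 2xSCS2F10 (1.74-fold, edgeR adjusted p = 0.0121), and Rnf43 had 34 and 22 fragments, against 1 and 1, a ratio of 20.8 of 2xSCS70 over 2xSCS2F10 (exact 95% interval 5.49 to 176, edgeR adjusted p = 0.00460). Rspo1, which shields Frizzled receptors from these ligases, was at 10.8 and 9.70 CPM in 2xSCS70, against 103 and 140 CPM in 2xSCS2F10, 11.9-fold lower (edgeR adjusted p = 0.000735). The ligases were thus higher and Rspo1 lower in the same line. Kremen1, a Dkk co-receptor, was 1.99-fold higher (edgeR adjusted p = 0.00732). The heparan sulphate proteoglycans Gpc6 and Gpc4 and the matrix protein Tinagl1 were 12.9-fold, 6.18-fold and 9.51-fold lower (edgeR adjusted p = 0.000700, 0.000924 and 0.000767).

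Of 27 tested genes of planar polarity and noncanonical signalling, 3 were higher and 9 lower in 2xSCS70 (44.4% called, close to the 40.6% of all genes), with a median log2 fold change of -0.25. Celsr1, a planar polarity cadherin, was at 0.834 and 0.616 CPM in 2xSCS70, against 73.1 and 64.2 CPM in 2xSCS2F10, 93.9-fold lower (edgeR adjusted p = 0.000347), whereas its paralogue Celsr3 was at 2.07 and 2.30 CPM, against 0.205 and 0.105 CPM, 13.8-fold higher (edgeR adjusted p = 0.00410). The paralogues were therefore called in opposite directions, as Ror1 and Ror2 were. Dact2, a Dishevelled-binding protein, was at 0 and 0.123 CPM in 2xSCS70, against 29.4 and 20.3 CPM in 2xSCS2F10, a ratio of 430 of 2xSCS2F10 over 2xSCS70 (exact 95% interval 147 to 2090, edgeR adjusted p = 0.00193). Without 2xSCS70 replicate 1 the Dact2 ratio was 202 (68.8 to 980) and without replicate 2 at least 228. Prickle2, a core polarity protein, and the calcium-dependent kinase Camk2d were 4.93-fold and 2.83-fold lower, and Nfatc2, a calcium-regulated factor, and the small GTPase Rhoa were 12.7-fold and 1.47-fold higher (edgeR adjusted p = 0.00288, 0.00384, 0.00560 and 0.0178). Nfatc2 was 21.6-fold higher without 2xSCS2F10 replicate 1.

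Known beta-catenin targets were called in both directions: 10 of 24 tested were higher and 5 lower in 2xSCS70 (62.5% called, where it was 40.6% of all genes). Genes that passed the filter through 1 line only, such as Notum and Tnfrsf19, had to differ. The median log2 fold change was 0.20, and 6 genes of this list are also members described above. Wisp2, a secreted matricellular target, was at 28.5 and 24.2 CPM in 2xSCS70, against 0.771 and 0.472 CPM in 2xSCS2F10, 42.2-fold higher (edgeR adjusted p = 0.000685). Cd44, a hyaluronan receptor, was 2.19-fold higher (edgeR adjusted p = 0.00690), and Tnfrsf19 had 34 and 23 fragments in 2xSCS70, against 0 and 1 in 2xSCS2F10, a ratio of 42.3 of 2xSCS70 over 2xSCS2F10 (exact 95% interval 7.29 to 1700, edgeR adjusted p = 0.00884). The other genes of the list called as higher were Axin2, Rnf43, Znrf3, Notum, Nkd2, Sox9 and Tcf7. Notum had 11 and 8 fragments in 2xSCS70, against 1 and 0 in 2xSCS2F10. Dkk3 and Bambi were among those called as lower. In that direction, Ccnd2, a D-type cyclin, was at 42.9 and 36.0 CPM in 2xSCS70, against 977 and 822 CPM in 2xSCS2F10, 22.8-fold lower (edgeR adjusted p = 0.000456). Ccnd1, another D-type cyclin, was at 408 and 244 fragments in 2xSCS70, against 5816 and 1092 fragments in 2xSCS2F10, 14.3-fold lower (edgeR adjusted p = 0.0216), and Fst, an activin antagonist, was 5.65-fold lower (edgeR adjusted p = 0.00561). The calls of Sox9, Nkd2, Notum and Bambi ended without 2xSCS70 replicate 1 (edgeR adjusted p = 0.0845, 0.129, 0.169 and 0.274) and without its replicate 2 (0.117, 0.148, 0.144 and 0.244). Without 2xSCS2F10 replicate 1 Ccnd1 was 4.65-fold lower and without replicate 2 24.0-fold, and the Tnfrsf19 ratio was 20.9 (exact 95% interval 3.61 to 841) without replicate 1 and at least 7.07 without replicate 2.

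Among the list genes named by adjusted p, Pygo1, Tle4, Gpc6, Rspo1, Tinagl1, Gpc4, Celsr1, Dact2, Wisp2 and Ccnd2 stayed called without either 2xSCS70 library. Tle1 ended without replicate 2 (adjusted p = 0.0520) and Rnf43 without replicate 1 (0.0617). For the others the call ended without either, with adjusted p between 0.106 and 0.188 in the intracellular core, 0.0521 and 0.155 in secretion and receptor turnover, 0.0577 and 0.208 in planar polarity, and 0.0726 and 0.162 among the targets.

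**Figure D4:**
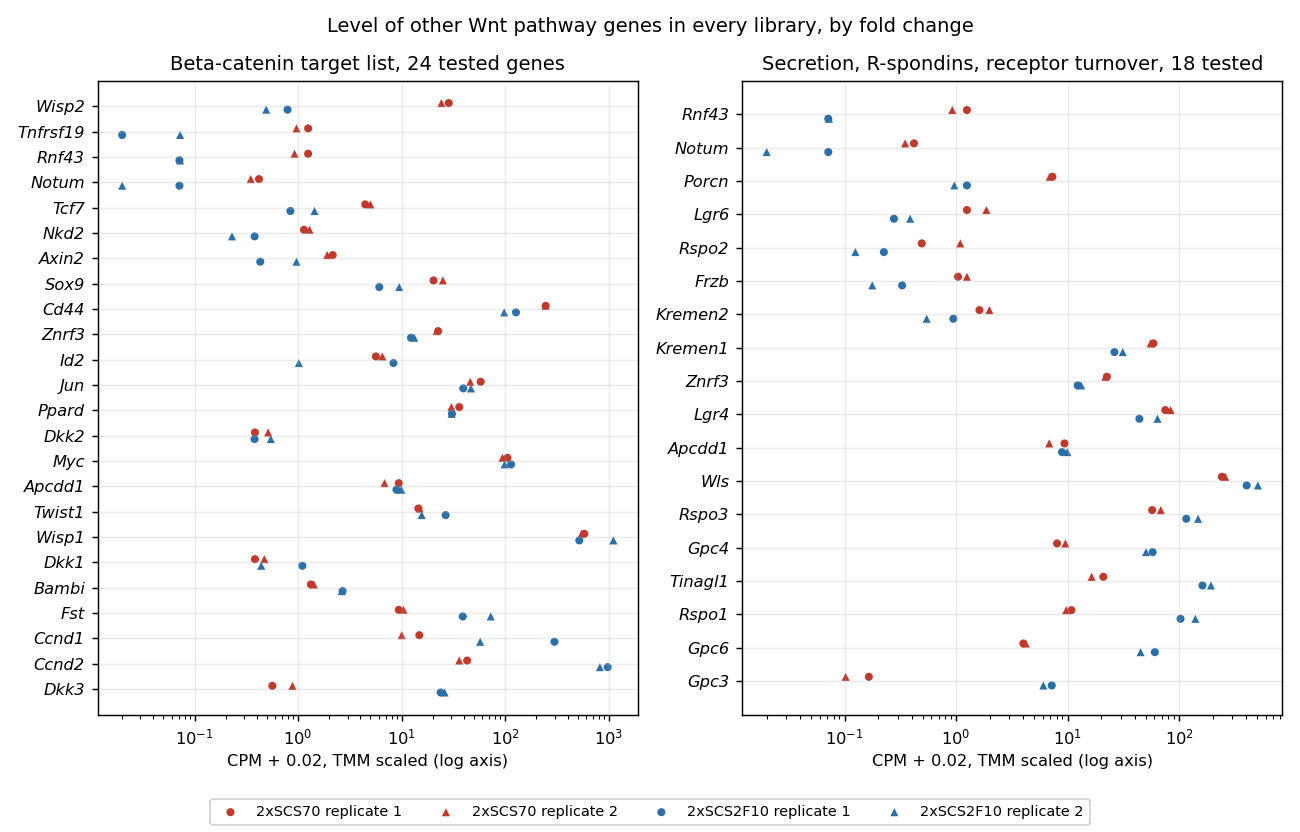
Level in the 4 libraries of the 24 tested genes of the beta-catenin target list and the 18 tested genes of the list on secretion, R-spondins and receptor turnover, in CPM plus 0.02 on a log axis and ordered by fold change, with 2xSCS70 in red and 2xSCS2F10 in blue. Wisp2 at the top of the targets is at 24.2 to 28.5 CPM in 2xSCS70 and 0.472 to 0.771 CPM in 2xSCS2F10, and Ccnd2 near the bottom is at 36.0 to 42.9 and 822 to 977 CPM.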

How the data were processed

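Polyadenylated RNA of 2 mouse lines was sequenced with a kit that does not mark strand (Illumina TruSeq mRNA), per the labels' protocols. The submitters' processing notes name TopHat2 2.0.6, Bowtie and HTSeq on mm10. No source used here names the annotation. Each library's table, as the authors deposited it, holds raw counts and RPKM values for 23358 gene rows, per the file headers. All counts were even, so 1 fragment was taken as 2 counts. The filter and the tests took the deposited counts, while floors, ratios and intervals used fragments. Counting error may therefore be understated in the p-values of genes with few fragments. In the tables of replicate 1, 25 names turned into dates were restored, none of them a member.

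Libraries were grouped by line from the labels and compared with edgeR 4.0.16 (R 4.3.3), by the quasi-likelihood test with TMM scaling and filterByExpr, over all rows, with Benjamini-Hochberg adjustment at 0.05. This left 14496 genes tested and 8862 untested. The common biological coefficient of variation was 20.4%. Differences are 2xSCS70 minus 2xSCS2F10. The SE of a log2 fold change was taken from its F statistic (size over root F). A line at 0 was set at 3 fragments per library, and for a line with 1 to 3 fragments a ratio and its exact 95% interval (Clopper-Pearson) are given. Fits with a library left out kept the same genes and assume that the single library left in its line varies as the other line does. Without a 2xSCS2F10 library the spread was that of the 2xSCS70 replicates alone, and without a 2xSCS70 library that of the 2xSCS2F10 replicates alone. P-values without a 2xSCS2F10 library therefore leave out the spread within 2xSCS2F10. The members, the gene lists and the tests were chosen with earlier results of these data known. All members were accounted for. Those with a mean of at least 1 CPM or a call were named with values, and of each pathway list up to 4 called genes each way by adjusted p. Ctnnb1, Fbxl14 and the other genes of the target list were named after their values were seen. Values of 1 marker gene are not reported here. Alternatives also used DESeq2 1.42.0 and limma 3.58.1, and tables and plots Python 3.11.15.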

Additional observations from a re-analysis of the deposited data

How the results depend on the processing

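Without the replicate number as a block 12 members were higher and 17 lower in 2xSCS70 (74.4% of those tested, beside 40.6% of all genes). With the replicate block 11 were higher and 15 lower (66.7%, beside 36.0% of all genes), the calls of Axin1, Axin2 and Fzd4 being lost (edgeR adjusted p = 0.0544, 0.0560 and 0.0520). Deviations of libraries with the same number correlated at r = 0.0423 over 14496 genes, so the number was not taken to pair them. Under RLE and upper quartile scaling, no filter, DESeq2 and limma-voom, 10 to 13 members were higher and 16 to 18 lower. These were 57.4% (no filter) to 76.9% (DESeq2) of those tested, beside 29.9% and 43.6% of all genes. The filter at a mean of 5 CPM tested 22 members and called 8 higher and 9 lower (77.3%, beside 39.9% of all genes). It called 7 pathway genes higher, against 20 of 93 without it, fewer genes being tested. With limma on RPKM, which is not TMM scaled, 1828 of all genes were lower at a pseudocount of 1 and 1964 at 0.1, against 3161 in counts. At these pseudocounts 61.5% and 64.1% of the tested members were called, beside 34.8% and 36.8% of all genes. The median of all genes stood at 0.15 and 0.25 rather than 0.02, and the cause was not tested. With 1 library left out, members higher ranged between 2 and 15 and lower between 6 and 21, all genes higher between 291 and 4772 and lower between 559 and 4795, and pathway genes higher between 2 and 32 and lower between 10 and 35. The low counts were without a 2xSCS70 library and the high ones without a 2xSCS2F10 library. Of the 29 member calls, 8 held under every alternative that tested them, those of Wnt7b and Fzd7 as higher and of Wnt5a, Wnt5b, Wnt11, Fzd3, Fzd8 and Dkk3 as lower, Fzd3 being untested under the 5 CPM filter. Signs turned for Sfrp1 and Dkk2, neither called. Sfrp1 was at 0.43 with limma-voom and 0.00 on log2(RPKM + 0.1), and with a library left out between -1.54 and 2.68. Dkk2 was at 0.04 under upper quartile scaling, 0.02 on log2(RPKM + 1), 0.09 on log2(RPKM + 0.1), and between -0.31 and 0.24 with a library left out. Members at 1 RPKM in both libraries numbered 20 in 2xSCS70 and 21 in 2xSCS2F10, with 21 and 24 at 0.5 RPKM and 16 and 19 at 2 RPKM. With 2 libraries per line, genes of a few fragments were not measured well enough to tell small differences.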

Other observations

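Other secreted regulators of the pathway also differed, named after their values were seen. Frzb, a Wnt-binding relative of the Sfrp proteins, was at 1.02 and 1.23 CPM in 2xSCS70, against 0.308 and 0.157 CPM in 2xSCS2F10, 4.77-fold higher (edgeR adjusted p = 0.0195), as Sfrp2 was. The R-spondin Rspo3 was at 57.3 and 68.5 CPM in 2xSCS70, against 116 and 148 CPM in 2xSCS2F10, 2.10-fold lower (edgeR adjusted p = 0.0102), less in size than Rspo1. Rspo2 went the other way at low counts, with 13 and 26 fragments in 2xSCS70, against 4 and 2 in 2xSCS2F10 (4.86-fold higher, edgeR adjusted p = 0.046). Lgr6, a receptor of R-spondins, was at 1.23 and 1.85 CPM, against 0.257 and 0.367 CPM, also higher (4.9-fold, edgeR adjusted p = 0.0145). Wls, the carrier that takes Wnt proteins to the cell surface, was at 242 and 259 CPM in 2xSCS70, against 404 and 509 CPM in 2xSCS2F10, 1.82-fold lower (edgeR adjusted p = 0.0134), whereas the acylating enzyme Porcn was higher. Lgr4, an R-spondin receptor, was at 75.2 and 83.9 CPM in 2xSCS70, against 44.0 and 64.0 CPM in 2xSCS2F10, and was not called (edgeR adjusted p = 0.0896). Its log2 fold change was 0.3 without 2xSCS2F10 replicate 1 and 0.85 without replicate 2. Myc, often used as a beta-catenin target, was at 105 and 94.2 CPM in 2xSCS70, against 114 and 98.8 CPM in 2xSCS2F10 (edgeR adjusted p = 0.586). The calls of Frzb, Rspo3 and Wls ended without 2xSCS70 replicate 1 (edgeR adjusted p = 0.12, 0.118 and 0.162) and without its replicate 2 (0.148, 0.0849 and 0.136).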
